A study of Mus musculus with 8 samples.

Results

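The genes described here decide whether a cell leaves the G1 phase of its cycle: the D cyclins Ccnd1, Ccnd2 and Ccnd3, the E cyclins Ccne1 and Ccne2, the Cdk inhibitors Cdkn1a, Cdkn1b, Cdkn2a and Cdkn2c, and the pocket protein gene Rb1. Chromatin accessibility around these 10 genes was read from ATAC-seq, where a transposase cuts accessible DNA and tags it for sequencing. A peak was counted to a gene when its centre lay inside the gene or within 50 kb of it, which gave 174 of the 134407 peaks of the study. None of the 174 peaks was shared by 2 of the genes. For 86 of them no other protein-coding gene was nearer, and the other 88 lay nearer to a neighbour, which is named wherever such a peak is described. Such peaks include those inside the neighbour or close to its end. The strongest ones near Ccnd1 and Ccnd2, for instance, lay 100 bp from LTO1 and 98 bp from Tigar. All peaks were 201 bp wide, so that levels can be compared between peaks per length.

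The cells were wild-type mouse embryonic stem cells of the single line E14, grown on gelatin in serum with LIF. The 4 control libraries came from cells in that medium, and the 4 paused libraries from cells that also received INK128 at 200 nM for 24 h, which blocks the growth kinase mTOR and was given to pause the cells in vitro. Each library was made from 50000 cells. No label says that the 4 libraries of a group came from separate cultures, so that p-values measure the spread between these libraries, which may be technical. RNA, protein and cell cycle phase were not analysed here, and a value is an average over all cells of a library, so that more cells with an open site and a site more open in each cell cannot be told apart.

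D cyclins bind Cdk4 and Cdk6 in response to growth signals and start the phosphorylation of Rb, the protein that holds E2F transcription factors in check. Cyclin E with Cdk2 completes that step and opens the way to S phase. Inhibitors of the Cip/Kip family, encoded by Cdkn1a (p21) and Cdkn1b (p27), bind Cdk2 complexes, while Ink4 proteins, encoded by Cdkn2a and Cdkn2c, bind Cdk4 and Cdk6. Mouse embryonic stem cells are known for a short G1 phase and low levels of D cyclins, and mTOR is a known regulator of cyclin D translation.

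Of the promoters, 6 windows are printed first, those of the genes whose start peaks are described most closely below. The RefSeq promoter table (build GRCm38.p6, 250 bases before to 50 after a listed start) held 10 windows for 6 of the 10 genes, Ccnd3, Ccne1, Cdkn1a, Cdkn1b, Cdkn2a and Cdkn2c. It had no entry for Ccnd1, Ccnd2, Ccne2 or Rb1. The windows of Ccne1 (chr7:38107441-38107740, minus strand), Cdkn1b (chr6:134920151-134920450, plus strand), the upstream and downstream listed starts of Cdkn1a (chr17:29090729-29091028 and chr17:29093519-29093818, plus strand), and likewise the upstream and downstream starts of Cdkn2a (chr4:89294570-89294869 and chr4:89282143-89282442, minus strand) are shown because each is overlapped by a peak whose level is given below. Capitals mark matches, on either strand, to the E2F motifs TTTGGCGC and TTTCCCGC, the GC box GGGCGG, the CCAAT box CCAAT, the E-box CACGTG and the p53 half-site.
Ccne1: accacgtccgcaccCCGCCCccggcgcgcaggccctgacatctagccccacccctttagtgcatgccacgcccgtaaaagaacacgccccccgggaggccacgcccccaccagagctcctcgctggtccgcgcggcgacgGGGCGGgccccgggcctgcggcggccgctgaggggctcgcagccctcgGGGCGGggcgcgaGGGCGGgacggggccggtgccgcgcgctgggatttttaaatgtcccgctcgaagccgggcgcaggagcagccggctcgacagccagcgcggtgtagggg
Cdkn1b: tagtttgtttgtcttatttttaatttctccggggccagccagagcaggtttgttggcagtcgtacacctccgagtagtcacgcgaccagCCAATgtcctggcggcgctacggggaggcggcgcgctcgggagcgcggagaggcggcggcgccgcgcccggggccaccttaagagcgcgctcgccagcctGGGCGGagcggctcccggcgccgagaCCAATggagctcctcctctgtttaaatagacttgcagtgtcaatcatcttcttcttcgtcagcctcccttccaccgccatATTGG
Cdkn1a, upstream start: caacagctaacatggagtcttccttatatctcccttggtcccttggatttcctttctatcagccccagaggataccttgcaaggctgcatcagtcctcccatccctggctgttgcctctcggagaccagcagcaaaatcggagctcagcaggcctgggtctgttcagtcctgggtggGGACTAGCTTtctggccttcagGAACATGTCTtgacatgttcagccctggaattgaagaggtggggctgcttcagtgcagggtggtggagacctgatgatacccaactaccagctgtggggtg
Cdkn1a, downstream start: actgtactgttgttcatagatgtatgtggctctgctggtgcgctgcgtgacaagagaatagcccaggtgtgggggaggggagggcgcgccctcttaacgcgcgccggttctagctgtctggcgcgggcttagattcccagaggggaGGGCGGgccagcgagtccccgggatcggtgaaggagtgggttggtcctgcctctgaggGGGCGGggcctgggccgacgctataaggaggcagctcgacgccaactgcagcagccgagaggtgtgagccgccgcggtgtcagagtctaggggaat
Cdkn2a, upstream start: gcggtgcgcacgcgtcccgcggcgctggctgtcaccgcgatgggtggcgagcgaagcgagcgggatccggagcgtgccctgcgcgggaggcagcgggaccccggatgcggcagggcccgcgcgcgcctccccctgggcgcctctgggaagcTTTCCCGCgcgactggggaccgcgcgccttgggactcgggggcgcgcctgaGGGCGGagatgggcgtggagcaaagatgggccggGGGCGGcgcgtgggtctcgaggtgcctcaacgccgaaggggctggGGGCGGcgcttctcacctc
Cdkn2a, downstream start: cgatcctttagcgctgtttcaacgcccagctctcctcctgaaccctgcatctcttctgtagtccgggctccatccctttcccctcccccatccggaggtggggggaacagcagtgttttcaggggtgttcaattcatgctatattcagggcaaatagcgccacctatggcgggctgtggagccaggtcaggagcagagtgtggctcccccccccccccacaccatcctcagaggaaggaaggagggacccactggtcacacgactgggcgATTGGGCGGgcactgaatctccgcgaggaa
The GC box was found in 8 of the 10 windows, against 35.7% of all 32851 promoters in the table, and the Ccne1 window held 4 copies. CCAAT was found in 4 windows (37.4% of all promoters), with 3 matches in that of Cdkn1b. Only the upstream Cdkn2a window held an E2F motif, TTTCCCGC (1.07% of all promoters), and none held TTTGGCGC (0.514%). CACGTG was found in 1 window, that of a second listed start of Cdkn2c (7.15%). The p53 half-site, which was added to the search after the data had been seen, was found only in the upstream Cdkn1a window, in 2 copies (8.36% of all promoters). In the downstream Cdkn2a window a CCAAT match on the other strand overlaps the GC box. GC content was 76.0% at Ccne1 and 77.0% at the upstream Cdkn2a start, 54.7% at the upstream Cdkn1a start, and 52.7% in the median promoter of the table. A match is a description of these letters and not a measured binding site.

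Accessibility at the listed gene starts was not shown to change in paused cells. A peak within 1 kb of a listed start, or of either gene end where no start was listed, was found for 9 of the 10 genes and not for Ccnd2. For 8 of these 9 the paused and control values overlapped and the limma-trend adjusted p was 0.085 or more. Their log2 changes, paused minus control on the log2(value + 1) scale, lay between -0.05 and 0.29. The 95% intervals of single peaks, not adjusted for the number of peaks, reached from -0.29 at the lowest to 0.52 at the highest. Changes up to those sizes are thus not excluded by these libraries. The interval at Cdkn1b, from 0.06 to 0.52, left out 0, and the others held it. The ninth, a weak peak at an end of Ccnd1 that lies nearer to LTO1, fell. These levels are scaled reads per peak as deposited, and the median tested peak of the study had a mean of 34.4.

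In the control libraries the order of openness at the starts and ends ran from Ccne2 (350 ± 45.4; SD, n = 4 here and for all such values below) over Cdkn1b (281 ± 52.1) to Cdkn1a (226 ± 15.5), Cdkn2a (213 ± 54.0), Ccne1 (183 ± 53.9), Cdkn2c (178 ± 17.7) and Ccnd3 (170 ± 31.5). Rb1 followed with 115 ± 17.2 and Ccnd1 with 27.5 ± 3.73. For Ccne2, Rb1 and Ccnd1 no strand was listed, so these peaks may lie at either end of the gene. The low Ccnd1 level is therefore not shown to be that of its start. A peak beyond the other end of Ccnd1, described below, was stronger. The neighbours from Cdkn1a down to Ccnd3 differed by less than the SD of the more variable of each pair. The other steps were larger than that. The Cdkn2a level is that of its upstream listed start, and its downstream start, given below, was weaker. Apart from Ccnd1, these peaks stood between the 86.0th and the 99.2nd percentile of all tested peaks by mean value.

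Cdkn1b had the highest log2 change of these 9 peaks, but it did not pass. Its peak (chr6:134920218-134920418) lies within the window printed above. It had values of 239, 348, 240 and 298 in the control libraries and 322, 317, 366 and 354 in the paused ones. Control replicate 2 lay within the paused range and the other 3 control libraries below it. The log2 change was 0.29 (SE 0.11, limma-trend adjusted p = 0.085). It was 0.18 with TMM scaling, which centres the change of the bulk of peaks near 0. Without control replicate 2 the limma-trend adjusted p was 0.0156, the lowest of the 8 fits that each left out 1 library. This was the only 1 of the 8 that passed, and the highest adjusted p among them was 0.264.

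Cdkn1a had a strong peak at one start and a weaker one at the other. At the downstream start, the peak chr17:29093640-29093840 measured 239, 207, 220 and 238 in control and 228, 243, 242 and 264 in paused libraries, with a log2 change of 0.11 (SE 0.11, limma-trend adjusted p = 0.521). At the upstream start, whose window holds the p53 half-sites, the peak chr17:29090826-29091026 was weaker, with 42.5 ± 13.5 in control and 41.9 ± 6.39 in paused libraries. Its log2 change was 0.03 (SE 0.20, limma-trend adjusted p = 0.947). The groups overlapped at both starts. The weaker peak was added after its values had been seen.

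Cdkn2a is a locus with separate starts for its Arf and Ink4a products. Which listed start belongs to which product was not assigned here. The peak at the upstream start (chr4:89294618-89294818) measured 213 ± 54.0 in control and 246 ± 23.4 in paused libraries (log2 change 0.23, SE 0.13, limma-trend adjusted p = 0.221). At the downstream start the peak (chr4:89282209-89282409), also added after its values had been seen, measured 66.4 ± 11.6 and 84.4 ± 6.79 (log2 change 0.36, SE 0.15, limma-trend adjusted p = 0.104). Control and paused libraries overlapped at both. The upstream peak passed in 1 of the 8 fits that left out 1 library, that without control replicate 2 (limma-trend adjusted p = 0.0205). In the other fits the adjusted p reached 0.479. With TMM scaling its log2 change was 0.12 (limma-trend adjusted p = 0.571). At the Ccne1 start (chr7:38107421-38107621) the values were 183 ± 53.9 and 199 ± 36.2 (log2 change 0.15, SE 0.14, limma-trend adjusted p = 0.519), with control replicate 2 above every paused library.

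At 4 other starts and ends no change passed. At the downstream listed start of Ccnd3 (chr17:47593369-47593569) the values were 170 ± 31.5 in control and 166 ± 21.9 in paused libraries. No peak lay within 1 kb of the upstream listed start. The nearest, 1055 bp away and described after its values had been seen, measured 103 ± 14.8 and 121 ± 9.70. At Cdkn2c (chr4:109666879-109667079) the values were 178 ± 17.7 and 172 ± 18.4, at an end of Ccne2 (chr4:11191148-11191348) 350 ± 45.4 and 383 ± 34.8, and at an end of Rb1 (chr14:73325967-73326167) 115 ± 17.2 and 118 ± 22.8. All 4 overlapped between groups. Their log2 changes were -0.02 at Ccnd3, -0.05 at Cdkn2c, 0.13 at Ccne2 and 0.02 at Rb1 (limma-trend adjusted p = 0.937, 0.817, 0.431 and 0.931).

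**Figure D1:**
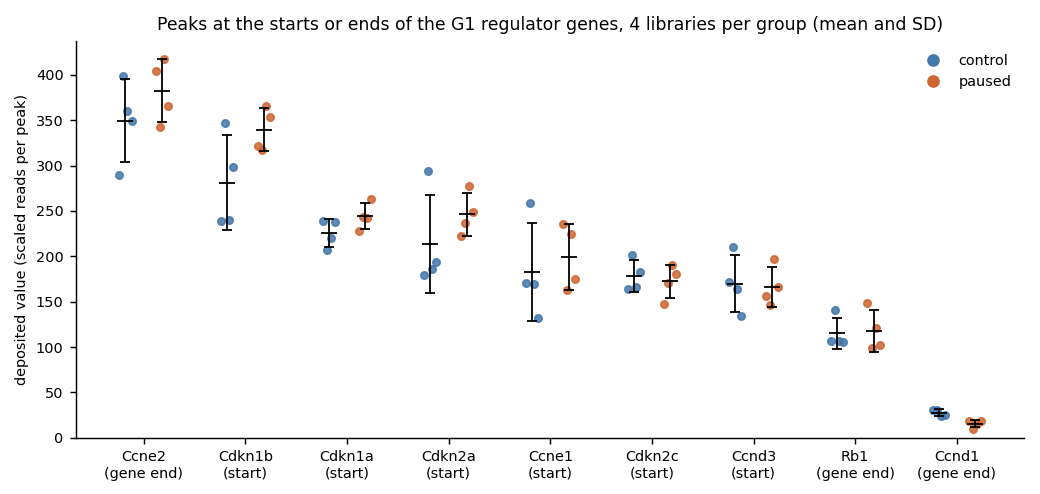
Deposited value (scaled reads per 201 bp peak) at the start of each gene, or at an end where no start was listed, in the 4 control (blue) and 4 paused (orange) libraries, with mean and SD in black. Such an end may or may not be the start of the gene. The groups overlap at 8 of the 9 genes; at Ccnd1 all 4 paused values lie below the control values.

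Most changes that passed lay away from the starts, as did most tested peaks. Of the 168 peaks around these genes that had a mean value of at least 10 and were tested, 17 rose and 8 fell at a limma-trend adjusted p under 0.05 over all 127402 tested peaks of the study. In either direction 14.9% were called, near the 13.9% of all tested peaks. By direction it was 10.1% higher against 11.0%, and 4.76% lower against 2.91%, and the number of calls is no result about these genes. The other 6 peaks were too weak to test. Within 1 kb of a gene end 10 peaks were tested and 1 was called, too few to set starts apart from other sites. Of the 25 called peaks, 13 were nearest to the listed gene. Counting called peaks of either kind, all genes but Cdkn2a had at least 1. At Ccnd1, Ccnd2, Ccne2 and Cdkn2c none of the called peaks was nearest to the gene. The median log2 change of the 168 peaks was 0.05, against 0.10 over all tested peaks.

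The direction of these calls went with how strong a peak was and with the scaling, and their number also with the tool. The 17 that rose had a median level of 74.7 and the 8 that fell one of 22.6; over the whole study the medians were 62.9 for peaks that rose and 25.3 for those that fell. With TMM scaling of the same test the counts were 8 higher and 12 lower (background 5.79% and 4.30%, together 10.1%). After a loess correction on peak strength they were 5 and 10 (background 5.10% and 3.50%, together 8.60%). On reads recovered from the values, edgeR with TMM gave 10 and 13 (background 7.13% and 5.54%, together 12.7%) and DESeq2 1 and 3 (background 3.06% and 1.49%, together 4.55%). The authors' deposited table lists 16 of the 174 peaks as higher and 4 as lower at an FDR under 0.05 (background 9.19% and 1.80%). Without control replicate 1, the deepest library, 12 rose and 3 fell (8.34% and 1.83% of all tested peaks in that fit), and without paused replicate 4, 8 rose and 4 fell (7.05% and 2.03%). Without control replicate 3, 13 rose and 4 fell (8.47% and 1.82%), and without control replicate 2, 19 and 5 (9.96% and 2.31%).

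**Figure D2:**
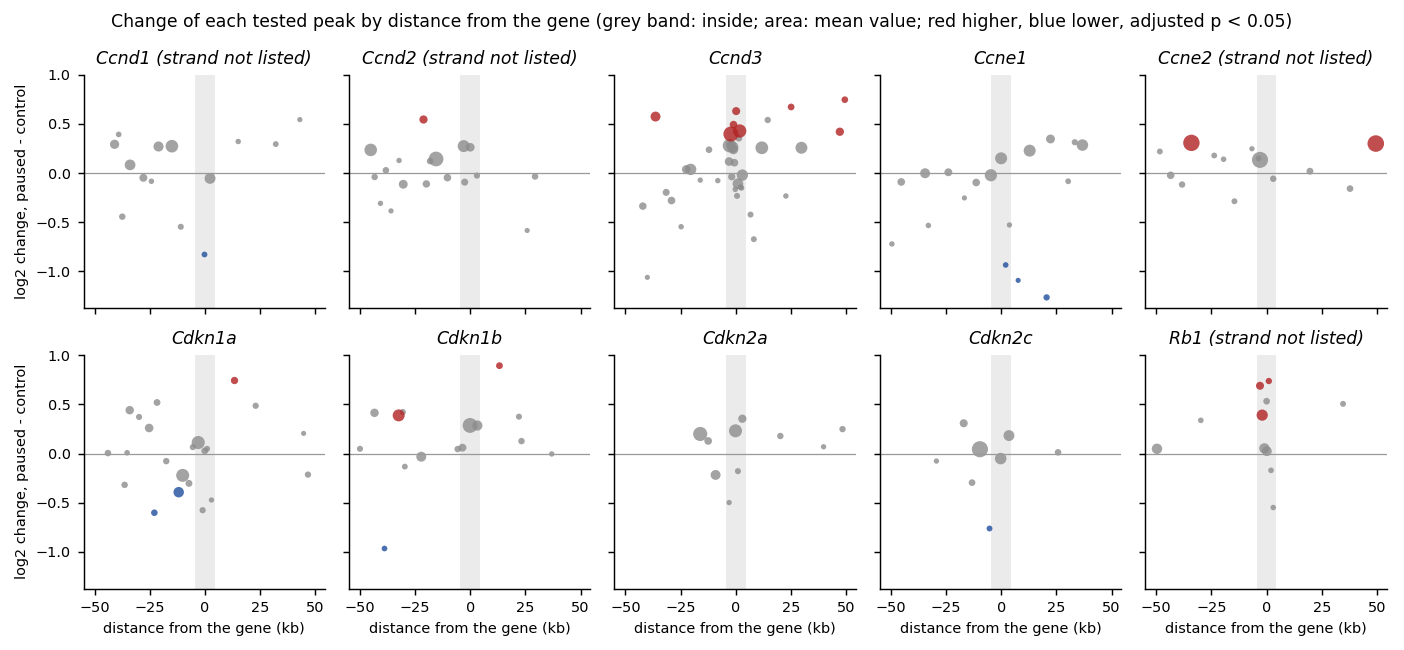
Log2 change (paused minus control) of each of the 168 tested peaks against its distance from the gene in kb, 1 panel per gene; negative distances are upstream where the strand is listed and towards lower coordinates where it is not, and peaks inside a gene are spread over the grey band in no scaled order. Dot area shows the mean value; red dots rose and blue dots fell at an adjusted p under 0.05, and 1 of the 17 red and 8 blue dots, that at Ccnd1, lies within 1 kb of a gene end.

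Among the cyclin genes, Ccnd3 (chr17:47505051-47599689), which encodes cyclin D3, had the most called peaks and also the most tested ones: 8 of 38 rose and 0 fell (background 11.0% and 2.91%). Inside the gene lay 4 of the 8, and the other 4 lay nearer to AI661453, Gm20517 or Usp49. The strongest peak of the locus lay inside the gene (chr17:47511231-47511431) and measured 265, 246, 293 and 284 in control and 302, 358, 405 and 374 in paused libraries. All paused values were above all control values, and the log2 change was 0.40 (SE 0.11, limma-trend adjusted p = 0.0108; 0.0629 with TMM scaling). Another peak inside the gene (chr17:47571780-47571980) went from 204 ± 9.65 to 276 ± 30.2, again with no overlap (log2 change 0.43, SE 0.11, limma-trend adjusted p = 0.00712). A weaker one there (chr17:47542124-47542324) went from 54.7 ± 10.2 to 85.1 ± 14.3 (log2 change 0.63, SE 0.16, limma-trend adjusted p = 0.00711); here paused replicate 3, with 63.6, fell into the control range. The smallest adjusted p at this locus belonged to a peak 36.4 kb upstream and nearer to AI661453 (chr17:47468597-47468797), which went from 98.3 ± 13.4 to 146 ± 5.96 (log2 change 0.58, SE 0.13, limma-trend adjusted p = 0.00202). With TMM scaling 4 peaks rose and 2 fell at Ccnd3, and after the loess correction 1 rose.

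Ccnd1 (chr7:144929931-144939831) and Ccnd2 (chr6:127125162-127152188), the genes of the cyclins D1 and D2, had 1 called peak each, of 14 and 18 tested (background 13.9%), and neither was nearest to the cyclin. The peak at an end of Ccnd1 (chr7:144929630-144929830, nearer to LTO1) measured 30.4, 31.1, 23.7 and 25.0 in control and 18.5, 9.46, 15.5 and 18.8 in paused libraries. Every paused library was below every control library, and the peak fell by 0.82 on the log2 scale (SE 0.26, limma-trend adjusted p = 0.0293). The call was lost without control replicate 1, control replicate 2 or paused replicate 2, with a highest adjusted p of 0.11. The strongest peak near Ccnd1 (chr7:144914900-144915100, nearer to LTO1) had 194 ± 19.8 in control and 235 ± 18.4 in paused libraries, without overlap, and did not pass (log2 change 0.27, limma-trend adjusted p = 0.0969). A peak 2356 bp above Ccnd1 and nearest to it (chr7:144942087-144942287), described after its values had been seen, measured 155 ± 13.5 and 151 ± 26.9. Near Ccnd2 the peak that rose (chr6:127103574-127103774) lay 21.5 kb below the gene and nearer to Tigar, and went from 60.5 ± 9.22 to 89.0 ± 11.1 (log2 change 0.55, SE 0.15, limma-trend adjusted p = 0.0107). Its limma-trend adjusted p was 0.0518 without paused replicate 4 and 0.0508 with TMM scaling. The strongest peak near Ccnd2 (chr6:127109550-127109750, nearer to Tigar) measured 288 ± 12.5 and 321 ± 50.3 and did not pass.

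The largest change of any of the 168 peaks lay near a cyclin E gene. A peak 20.6 kb downstream of Ccne1 (chr7:38097984-38107490) and nearest to it (chr7:38077294-38077494) had values of 31.5, 39.4, 57.6 and 52.9 in the control libraries and 17.3, 15.8, 15.5 and 23.4 in the paused libraries. The highest paused value was below the lowest control value. The peak fell by 1.27 on the log2 scale (SE 0.23, limma-trend adjusted p = 0.000191), and the call was kept with each library left out, with TMM scaling, after the loess correction, in edgeR and in DESeq2. Another 2 weaker peaks downstream of Ccne1 fell as well. The one 2040 bp away (chr7:38095844-38096044) went from 24.5 ± 3.19 to 12.6 ± 3.62 (log2 change -0.94, SE 0.28, limma-trend adjusted p = 0.0198). A weaker one 7697 bp away (chr7:38090187-38090387) went from 14.4 ± 2.92 to 6.33 ± 1.91 (log2 change -1.09, SE 0.37, limma-trend adjusted p = 0.0436), close to the smallest level that was tested; 3 reads were worth 1.04 to 5.08, depending on the library. The first lost its call without control replicate 3 or paused replicate 4 (adjusted p up to 0.0795), and the second in all fits without 1 library (up to 0.131) but those without paused replicates 1 or 2, and after the loess correction (0.176). Of the 18 tested peaks around Ccne1, 0 rose and 3 fell (background 11.0% and 2.91%). The strongest peak of the locus, 4666 bp upstream (chr7:38112056-38112256), measured 200 ± 5.51 and 199 ± 28.3.

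Around Ccne2 (chr4:11190433-11204779), 2 of 14 tested peaks rose and 0 fell (background 11.0% and 2.91%), and both lay far from the gene. Both were strong. The stronger, 49.5 kb above Ccne2 and nearer to Ints8 (chr4:11254152-11254352), went from 351 ± 37.4 to 431 ± 28.9 (log2 change 0.30, SE 0.10, limma-trend adjusted p = 0.0449). Its counterpart, 34.1 kb below and nearer to Trp53inp1 (chr4:11156252-11156452), went from 342 ± 40.9 to 423 ± 43.6 (log2 change 0.31, SE 0.11, limma-trend adjusted p = 0.0456); here control replicate 2, with 400.1, lay within the paused range. Both calls were lost in 6 of the 8 fits that left out 1 library: the first was kept only without control replicates 2 or 4, and the second only without control replicate 2 or paused replicate 1. With TMM scaling the log2 changes were 0.19 and 0.20 (limma-trend adjusted p = 0.219 and 0.214).

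Of the Cip/Kip inhibitor genes, Cdkn1b (chr6:134920401-134925525) had a downstream peak that rose and an upstream one that fell under each alternative named here. The peak 13.2 kb downstream of the gene and nearest to it (chr6:134938643-134938843) measured 27.7, 34.6, 27.1 and 25.0 in the control libraries and 57.7, 52.1, 57.4 and 48.0 in the paused ones. All paused libraries were above all control libraries. The log2 change was 0.90 (SE 0.18, limma-trend adjusted p = 0.000903). The call was kept with each library left out, with TMM scaling, after the loess correction, in edgeR and in DESeq2. Upstream of Cdkn1b, nearer to Gpr19, a weak peak (chr6:134881149-134881349) fell from 26.8 ± 2.4 to 13.5 ± 3.76 (log2 change -0.96, SE 0.26, limma-trend adjusted p = 0.0116) and kept its call under the same alternatives. A strong one beside it (chr6:134887853-134888053) rose from 166 ± 15.1 to 217 ± 6.54 (log2 change 0.39, SE 0.11, limma-trend adjusted p = 0.0169), a call lost with TMM scaling (limma-trend adjusted p = 0.0941), without control replicate 3 and without paused replicate 4.

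At Cdkn1a (chr17:29090979-29100722) the peaks nearest to the gene that changed were lower in paused cells and lay upstream. The stronger, 11.9 kb upstream (chr17:29079024-29079224), measured 158, 159, 161 and 148 in control and 127, 115, 127 and 108 in paused libraries. The groups did not overlap, and the log2 change was -0.39 (SE 0.12, limma-trend adjusted p = 0.0234). The second, 22.9 kb upstream (chr17:29068002-29068202), went from 44.1 ± 5.06 to 28.7 ± 2.84 (log2 change -0.60, SE 0.19, limma-trend adjusted p = 0.0294). Each lost its call in 4 of the 8 fits without 1 library, with adjusted p up to 0.0897 and 0.0913. For the stronger peak these were the fits without control replicates 1 or 3 or paused replicates 2 or 4, and for the second those without control replicates 1 or 2 or paused replicates 2 or 3. With TMM scaling the log2 changes were -0.50 and -0.70 (limma-trend adjusted p = 0.00481 and 0.0138). Between these and the gene, the second strongest peak of the locus, 10043 bp upstream (chr17:29080836-29081036) and described after its values had been seen, measured 247 ± 17.4 and 212 ± 25.7 and did not pass (log2 change -0.22, limma-trend adjusted p = 0.185; with TMM scaling -0.33 and 0.0489). Downstream, nearer to Rab44, a peak (chr17:29113657-29113857) rose from 39.2 ± 7.47 to 66.7 ± 14.9 (log2 change 0.75, SE 0.18, limma-trend adjusted p = 0.00454), a call kept with each library left out.

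Of the 18 peaks tested around the Ink4 genes, 1 was called (background 13.9%). None of the 10 around Cdkn2a (chr4:89274473-89294619) passed, and their log2 changes lay between -0.50 and 0.36. The strongest of them lay at Cdkn2b, the neighbouring Ink4 gene (chr4:89310607-89310807), with 257 ± 31.0 in control and 295 ± 34.2 in paused libraries (log2 change 0.20, SE 0.11, limma-trend adjusted p = 0.239). Around Cdkn2c (chr4:109660876-109666756), 1 of 8 peaks was called, a weak one 5393 bp upstream and nearer to Faf1 (chr4:109672049-109672249). It went from 29.9 ± 8.21 to 17.4 ± 4.72 (log2 change -0.75, SE 0.26, limma-trend adjusted p = 0.0469); control replicate 4, with 19.1, lay within the paused range, and the call was lost in all fits without 1 library (adjusted p up to 0.168) but those without control replicate 4 or paused replicates 2 or 3. The strongest peak of that window (chr4:109676288-109676488, nearer to Faf1) measured 365 ± 47.3 and 376 ± 38.3.

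Rb1 (chr14:73192858-73325951) had 3 of 11 tested peaks higher and 0 lower (background 11.0% and 2.91%), and all 3 lay inside the gene. The median log2 change of the 11 was 0.34, against 0.10 over all tested peaks, and 0.23 with TMM scaling. The peak with the smallest adjusted p (chr14:73231644-73231844) measured 56.0, 66.9, 33.9 and 55.8 in control and 76.1, 103, 71.4 and 89.0 in paused libraries, without overlap (log2 change 0.69, SE 0.17, limma-trend adjusted p = 0.0054). Another (chr14:73254492-73254692) was weaker and even within groups, with 23.6 ± 1.87 in control and 40.0 ± 0.830 in paused libraries (log2 change 0.74, SE 0.20, limma-trend adjusted p = 0.0109). These calls were kept with each library left out, with TMM scaling and after the loess correction, and were lost in DESeq2 (adjusted p = 0.099 and 0.163). The last and strongest (chr14:73234626-73234826) went from 141 ± 8.78 to 187 ± 30.0 (log2 change 0.39, SE 0.12, limma-trend adjusted p = 0.0269) and was lost with TMM scaling (limma-trend adjusted p = 0.119) and in 4 of the 8 fits without 1 library, those without control replicates 1 or 3 or paused replicates 3 or 4. Whether these positions are exonic or intronic was not analysed here. In DESeq2 the calls that passed for all 10 genes were 4, those of the downstream Ccne1 peak that changed most, of the Cdkn1b peaks 13.2 kb downstream and 39.2 kb upstream, and of the stronger Cdkn1a peak.

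**Figure D3:**
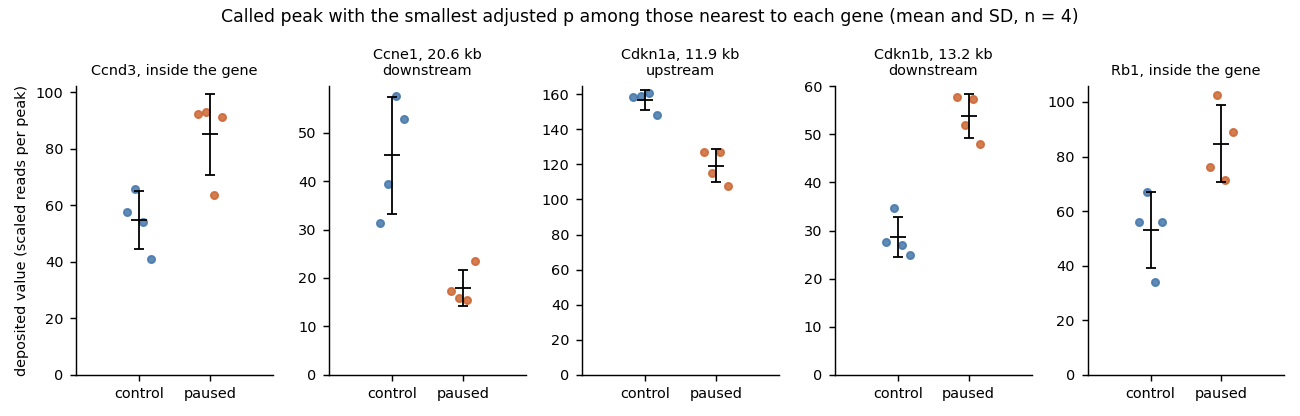
Deposited value (scaled reads per peak) in each of the 4 control and 4 paused libraries at the called peak with the smallest adjusted p among those nearest to each gene, with mean and SD in black; each panel has its own axis from 0. Libraries of the groups are apart at Ccne1, Cdkn1a, Cdkn1b and Rb1, and 1 paused library reaches into the control range at Ccnd3.

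Across the 168 peaks, 21 had all paused values above all control values and 14 had them all below (background 13.0% and 4.36% of tested peaks). By gene, Ccnd3 gave 9 of the first kind and 3 of the second among 38 tested peaks. Rb1 gave 3 and 1 among 11, and Ccne1 gave 0 and 4 among 18. Those of the second kind at Ccnd3 and Rb1 were not called. The median SD of log2(value + 1) between the libraries of a group was 0.21 in control and 0.23 in paused cells for these peaks.

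Summed over all its peaks, the signal of a whole locus counts each peak by its level, so that strong peaks weigh most and weak ones little. The sum rose at 5 of the 10 genes, Ccnd2, Ccnd3, Ccne2, Cdkn1b and Rb1, and fell at 0, in limma-trend over 20202 protein-coding genes. The background was 50.1% of genes higher and 0.747% lower, together 50.9%, with a median log2 change of 0.15, so that a rise of that size is what these scaled values show for genes in general. With TMM scaling (median 0.00, background 5.39% higher and 4.81% lower, together 10.2%) none of the 10 sums rose, and that of Cdkn1a fell. In edgeR with TMM, too, 0 rose and Cdkn1a alone fell (background 5.74% and 4.95%, together 10.7%), and in DESeq2 none passed (background 3.83% and 3.25%, together 7.08%). Neighbouring genes share peaks, and sums of genes are therefore not independent.

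For Cdkn1b the sum was 1017, 1144, 996 and 1084 in the control libraries and 1238, 1221, 1199 and 1346 in the paused ones (log2 change 0.24, SE 0.06, limma-trend adjusted p = 0.00153). For Rb1 it was 659, 775, 693 and 705 against 804, 798, 870 and 870 (log2 change 0.24, SE 0.06, limma-trend adjusted p = 0.00349), and for Ccnd3 it was 2984 ± 65.1 against 3439 ± 117 (log2 change 0.20, SE 0.04, limma-trend adjusted p = 0.000322). All paused sums were above all control sums at these 3 genes, and their calls held with each library left out. With TMM scaling their log2 changes were 0.09, 0.09 and 0.06 (limma-trend adjusted p = 0.265, 0.294 and 0.316). The rises at Ccne2 (log2 change 0.19, limma-trend adjusted p = 0.012) and Ccnd2 (0.13, limma-trend adjusted p = 0.0378) had overlapping groups. With TMM scaling they were 0.04 and -0.02 (limma-trend adjusted p = 0.627 and 0.862), and from the peaks nearest to each gene alone neither passed (limma-trend adjusted p = 0.235 and 0.177). The Ccne2 call was also lost without control replicate 1, and the Ccnd2 call without control replicates 1 or 2 or paused replicates 3 or 4.

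Cdkn1a stood at the other end of the 10 genes. Its sum was 1367, 1369, 1272 and 1287 in control and 1342, 1284, 1223 and 1398 in paused libraries, which overlap (log2 change -0.01, SE 0.05, limma-trend adjusted p = 0.822). Its change was higher than that of 7.60% of all genes. With TMM scaling it was -0.16 (limma-trend adjusted p = 0.0427), and in edgeR with TMM -0.17 (adjusted p = 0.0333). Ccne1 (log2 change 0.03) and Cdkn2c (0.03) were higher than 12.9% and 13.1% of genes and did not pass under either scaling. Ccnd1 (0.10) and Cdkn2a (0.13) did not pass either.

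**Figure D4:**
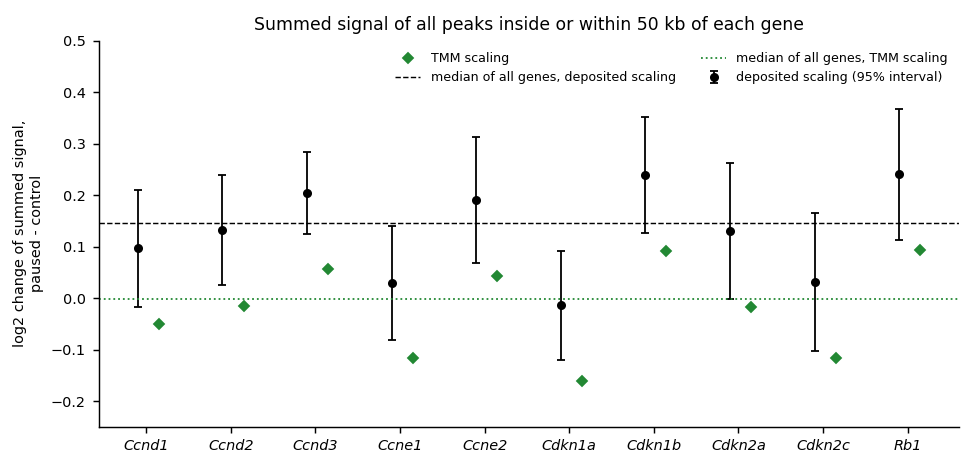
Log2 change (paused minus control) of the summed signal of all peaks inside or within 50 kb of each gene, with its 95% interval under the deposited scaling (black) and the value under TMM scaling (green). Dashed and dotted lines give the medians over all 20202 genes, 0.15 and 0.00; Cdkn1b and Rb1 lie highest and Cdkn1a lowest under both scalings.

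The loci whose sums ran most like those of 3 of these genes were looked up over the 8 libraries, as a description without a test. For Ccnd1 they were Tigit, Dnmt3b and Ifnar1 (Pearson r 0.97, 0.97 and 0.95). For Cdkn1a they were Lrrc59, Slc37a4 and Catsper3 (0.90, 0.89 and 0.89), and for Rb1 Zfp317, Prkacb and Synm (0.99 each). The 8 points share their group difference and library scaling, and each list is the top of 20197 genes compared, or 20198 for Rb1.

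Other genes of the pathway were counted in the same fit, through peaks inside each gene or within 50 kb. For the partner kinases and their activators (Cdk2, Cdk4, Cdk6, Cdc25a, Cdk7, Ccnh and Mnat1), 6 of 155 tested peaks rose and 2 fell. For the inhibitors Cdkn1c, Cdkn2b and Cdkn2d it was 3 and 3 of 50, and for Rbl1, Rbl2, the E2F genes and their partners 13 and 10 of 201. Genes of DNA replication such as Cdc6, Pcna and the Mcm genes had 9 and 9 of 207. Mitotic cyclins and kinases had 5 and 1 of 91, genes for the turnover of G1 regulators such as Skp2 and Fbxw7 8 and 3 of 96, and Trp53, Mdm2, Mdm4 and Ccng1 2 and 5 of 84. The called share ranged from 5.16% to 12.0%, against 13.9% of all tested peaks (11.0% higher and 2.91% lower). With TMM scaling the counts higher and lower were 2 and 8 for the kinases and activators, 0 and 4 for the inhibitors and 6 and 14 for the pocket protein and E2F list. They were 1 and 11 for replication, 0 and 3 for mitosis, 5 and 7 for turnover and 1 and 8 for the p53 axis (background 5.79% and 4.30%). The balance thus turned or moved towards lower in every list. Over all tested peaks it moved the same way, from 13958 higher and 3702 lower to 7381 and 5474, so that the shift is no trait of these lists. These lists, too, were made with earlier results known. Median log2 changes lay between -0.06 for the p53 axis and 0.13 for the mitotic genes, against 0.10 for all. Of the 51 locus sums of these genes, 25 rose and 0 fell with the deposited scaling (background 50.1% and 0.747%). With TMM scaling 0 rose and 4 fell (background 5.39% and 4.81%), those of Cdk4, E2f6, Pcna and Mdm4 (log2 change -0.17, -0.24, -0.13 and -0.20; limma-trend adjusted p = 0.0124, 0.00445, 0.0474 and 0.00668).

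Facts of the whole set of libraries bear on all of these values. The reads in peaks ranged from 4434037 to 21161767 per library, with control replicate 1 the deepest. Of 7 stem cell marker genes, 6 had a peak inside the gene or within 1 kb, with a median over the 7 of the strongest peak's level of 199 in control and 256 in paused libraries; Pou5f1 had none and counts as 0. Genes of other lineages had such peaks too, except Foxa2 of the 4 endoderm genes, which counts as 0, with medians of 143 and 169 for endoderm, 140 and 161 for neural, 82.7 and 80.1 for mesoderm, 83.9 and 91.4 for trophoblast and 68.9 and 61.6 for fibroblast genes. Single genes did not follow these medians. Sox17 of the endoderm genes, with 278 in control and 318 in paused libraries, stood above every stem cell gene (up to 230 and 279). The strongest peak was also taken from unlike numbers of peaks, 34 at Esrrb and 1 at Sox2. Open chromatin at a gene does not show that it is expressed, and the part of other cell types in the results was not tested.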

How the data were processed

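ATAC-seq libraries, 4 control and 4 paused, were grouped by sample title and matched to columns by library name. Per the submitters' processing notes, FastQC, Trim Galore, Bowtie2 2.4.1, MACS3 3.0.3, DiffBind 3.16.0 and build mm10 were used, without role or order; read filters and any Tn5 offset are not given in the sources used here. Each library's column, as the authors deposited it, is a scaled signal: whole reads over a constant for that library, given to 2 decimals, and 100% of its values were whole multiples of 1 step (tolerance 0.0151), from which reads were recovered. The authors also deposited log2 means, a log2 fold, a p-value and an FDR, used only where their table is named. Of per-sample columns, 0 were left unused.

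The main test was limma-trend (limma 3.58.1, R 4.3.3) of log2(value + 1), with no covariate, on the 127402 peaks whose values averaged 10 or more, with Benjamini-Hochberg adjustment over them; such fold changes understate those of weak peaks. Locus sums were tested likewise on 20202 genes. Alternatives were edgeR 4.0.16 (quasi-likelihood, TMM or deposited factors; 16142 peaks called with TMM) and DESeq2 1.42.0 on recovered reads, limma-trend with TMM or a loess correction (span 0.3), a pseudocount of 0.1, no filter or a mean of 50, a replicate block, each library left out, a 20 kb window, and peaks nearest to the gene only. In a simulation of paused against control on 127402 peaks, 200 peaks at or above the median level were changed by log2 1. Of these limma-trend recovered 84.5% (3 unchanged peaks called) and edgeR 95.5% (13). Weaker peaks, smaller changes and a shift of most peaks were not simulated, so that these rates do not hold for them.

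Genes (21887, protein-coding) came from a RefSeq table of GRCm38.p6 without strand. A peak was centred within 1 kb of 41.8% of their ends, and of 17.8% after all peaks were moved by 50000 bp, so coordinates are read as GRCm38. The genes, lists and tests were chosen with earlier results of these data known. Named for each gene were the peak nearest to a start within 1 kb (either end where no start is listed), the strongest peak, and up to 3 called peaks with the smallest adjusted p; any other is marked as chosen after its values were seen. PCR copies are not independent molecules, so depth covers counting error only.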

Additional observations from a re-analysis of the deposited data

Results flagged for a closer look

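In 3 of the 88 groups of 4 values tested, those of the 34 named peaks and the 10 locus sums, 1 library stood farther from the other 3 than Dixon's critical value at the 95% level allows; chance flags about 1 in 20 groups.

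At the peak inside Ccnd3 at chr17:47542124-47542324, paused replicate 3 had 63.62, while the other 3 paused libraries lay between 91.38 and 93.06. At the upstream Cdkn2a start, control replicate 2 had 293.81 and the other control libraries 179.42 to 193.97. At the end of Rb1, control replicate 2 had 140.93 and the others 105.8 to 107.17. Control replicate 2 was thus the high one at both of these ends.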

How the results depend on the processing

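Counts of called peaks moved with the scaling, the tool, the filter and the choice of peaks. The number higher, 17, was 10 in edgeR with TMM, 1 in DESeq2, and 8 and 5 in limma-trend with TMM and with the loess correction; it was 9 in a 20 kb window and 8 for peaks nearest to the gene. The number lower, 8, was 13, 3, 12 and 10 under the same fits, 5 and 5 under the same choices of peaks, and 1 at a mean of 50. Without 1 library the number higher ran from 8 (without paused replicate 4) to 19 and the number lower from 3 (without control replicate 1) to 7; it was 5 without control replicate 2 and 4 without control replicate 3 or paused replicate 4. Locus sums called higher, 5, were 0 in edgeR with TMM, DESeq2 and limma-trend with TMM, 3 for peaks nearest to the gene and 3 (without control replicate 1) to 6 without 1 library; those called lower, 0, were 1 in edgeR and limma-trend with TMM and 0 without any 1 library. The pseudocount and the absence of a filter moved no count by over 1.5 times. Nor did edgeR with the deposited factors, which changed the tool and kept the scaling. It gave 20 peaks higher and 11 lower, and 5 locus sums higher and 0 lower. Of peaks nearest to the gene 83 were tested and 15.7% called, against 13.9% of all tested peaks. The share over all peaks at a mean of 50 and the number tested in the 20 kb window are not given here. Nor are the shares over all genes for locus sums from nearest peaks or without 1 library. The shares over all peaks and genes in edgeR with the deposited factors are not given either.

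Some changes turned sign, among them the Ccnd2 locus sum, a called rise. In edgeR with TMM, DESeq2 and limma-trend with TMM the locus sums changed by -0.055, -0.054 and -0.050 at Ccnd1, -0.0087, -0.0096 and -0.015 at Ccnd2, -0.12, -0.12 and -0.12 at Ccne1, -0.015, -0.016 and -0.017 at Cdkn2a, and -0.10, -0.11 and -0.12 at Cdkn2c (log2). Under the same 3 and then loess, the strongest peak near Cdkn2c gave -0.046, -0.052, -0.064 and -0.16, and the end of Rb1 -0.054, -0.064, -0.084 and -0.17; the Cdkn1a start gave -0.0025 in edgeR, -0.0021 in DESeq2 and -0.095 with loess. With loess alone, -0.065 was found at the strongest Ccnd2 peak, -0.056 at the Ccne1 start, -0.075 at the end of Ccne2 and -0.0083 at the Cdkn2b peak. Leaving out 1 library at a time, the locus sums ranged from -0.014 to 0.064 at Ccne1, -0.045 to 0.019 at Cdkn1a and -0.023 to 0.075 at Cdkn2c, and the peaks from -0.13 to 0.087 at the Ccnd3 start, -0.085 to 0.080 at the strongest Ccne1 peak, -0.10 to 0.021 at the Cdkn2c start, -0.050 to 0.11 at the strongest peak near Cdkn2c and -0.094 to 0.12 at the end of Rb1.

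The replicate numbers were not shown to pair the libraries: same-numbered ones correlated at 0.08, 0.04, 0.13 and 0.04, and not every library correlated best with its own number. With the number as a block 20 peaks were higher and 10 lower, and 6 locus sums were higher and 0 lower. The shares of all peaks and genes called with this block are not given here, so these counts have no background. Of the named peaks and the 10 sums, 2 passed with the block that had not, the Cdkn1b start (limma-trend adjusted p = 0.0386) and the Cdkn2a sum (0.0318). The cause of these shifts was not tested. In the shallowest library, control replicate 3, a value of 5.08 rests on 3 reads.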
